A study of Mus musculus with 20 samples.

Results

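The Loop of Henle genes examined here are 9 genes of the thick ascending limb, the segment of the nephron that runs from the renal medulla back to the cortex. They were chosen by name for their known expression in that segment, with earlier results of these data known. They were found by gene name in the count table, which lists 54532 genes. All 9 passed the filter for low counts. RNA sequencing was performed on 10 kidney tumors and 10 normal kidney regions of the Cre-less AAV model. The mice carried a Lox-Stop-Lox Cas9 allele (LSL-Cas9/+) and Pax8 Cre/+ on a C57BL/6 background, so that Cas9 was made in Pax8-expressing cells, which include the tubule cells of the kidney. An adeno-associated virus (AAV) that carried sgRNAs for Keap1, Pbrm1, Vhl and Tsc1 was injected directly into the kidney. The tumors arose in these mice, and the normal regions came from the same 10 mice, so they share the alleles. Whether they were taken from the injected kidney is not given in the sources used here. The age of the mice when the tissue was collected is not given in the sources used here. Both groups are bulk tissue, and no label marks any normal kidney as injured.

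The thick ascending limb takes up sodium, potassium and chloride from the urine without water and thereby dilutes the urine and feeds the salt gradient of the medulla. The cotransporter NKCC2 brings the ions in at the apical side, the potassium channel ROMK returns potassium to the lumen, and barttin serves the exit of chloride at the basolateral side. The voltage this sets up drives calcium and magnesium between the cells through pores made of claudins, and the same cells secrete uromodulin, the most abundant protein of normal urine.

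Total counts per library ranged from 14737516 to 26679704. Normal kidney 9 stood apart: its normalization factor was 0.749, where those of the 9 others ran from 1.028 to 1.143, and the deviation of its genes from the group mean fell with gene length (Spearman's rho across genes -0.56, against 0.04 to 0.24 in the others). Among the targeted genes, tumors had lower mean levels than normal kidneys for Vhl (18.4 against 25.9 CPM, normalized counts per 1e6 counts) and Tsc1 (33.4 against 51.0 CPM). Mean Pbrm1 was 53.7 against 65.2 CPM, a difference that did not pass the test (adjusted p = 0.23, edgeR), and mean Keap1 was 80.2 against 45.0 CPM. All 90 pairs of libraries of 1 group differed by more than sampling noise (chi-square over degrees of freedom of 12.8 or more).

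Of the 9 genes, 8 were lower in tumors, and in each of these 8 every tumor was below every normal kidney. Umod, which encodes uromodulin, fell to 0.0264% of its normal kidney mean, and Slc12a1, which encodes NKCC2, to 0.0416%. The exception was Cldn10, whose tumors averaged 61.1% of the normal kidney mean and whose groups overlapped. The comparison used the quasi-likelihood test of edgeR over 15354 genes with Benjamini-Hochberg adjustment, and a gene was called at an adjusted p under 0.05. By that rule 23.8% of all genes tested were lower in tumors, and in 4.74% every tumor was below every normal kidney. The 9 genes had a median log2 fold change of -9.0, beside -0.021 over all genes tested. Each of the 8 called genes had a log2 fold change below -5, which 206 genes (1.34%) had in all. In bulk tissue, fewer cells of a type and less RNA per cell cannot be told apart.

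**Figure D1:**
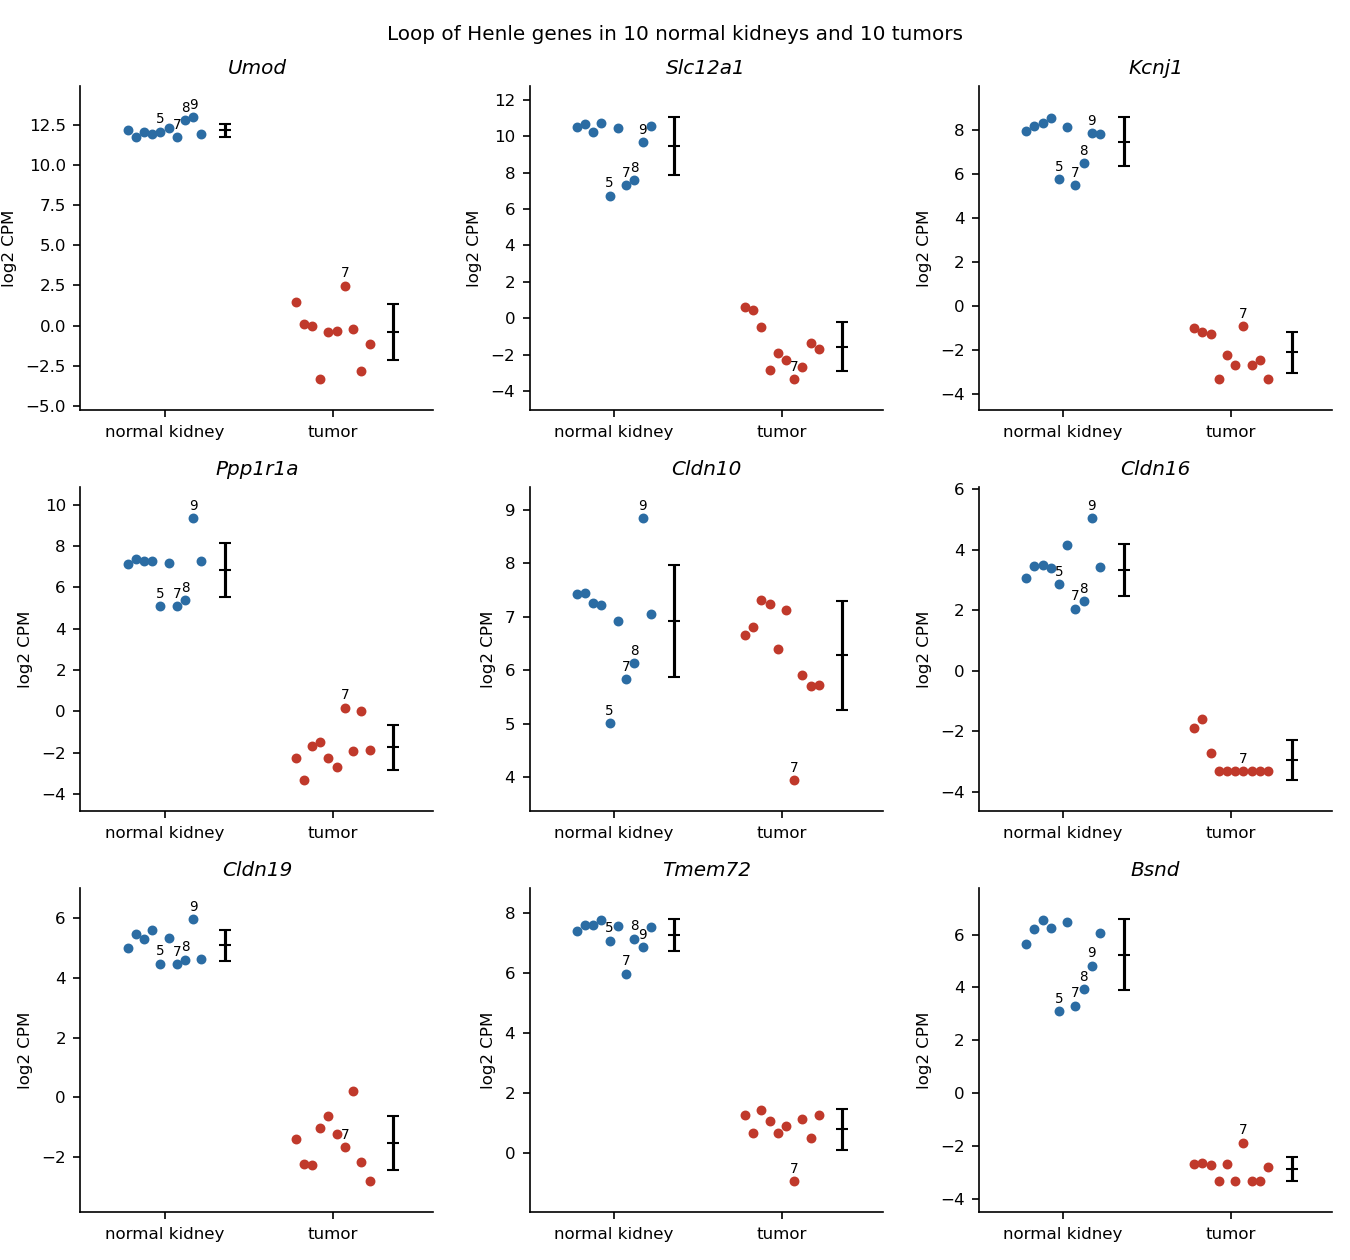
Each panel plots log2 CPM of 1 gene (prior count 2) in 10 normal kidneys (blue) and 10 tumors (red), in the order of their numbers, with the mean and SD in black at the side. Normal kidneys 5, 7, 8 and 9 and tumor 7 are numbered. The groups are apart in 8 panels and overlap for Cldn10, and normal kidneys 5, 7 and 8 are low for Slc12a1, Kcnj1 and Bsnd but not for Umod.

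Umod and Slc12a1 are the most abundant and the best known of these genes, and their levels parted in some of the normal kidneys. The 250 bases before their RefSeq start sites (GRCm38.p6) are shown to place them beside each other. Umod (ENSMUSG00000030963) spans chr7:119462711-119479282 on the minus strand, and Slc12a1 (ENSMUSG00000027202) spans chr2:125152505-125230002 on the plus strand. The Umod window is chr7:119479263-119479512 on the minus strand and that of Slc12a1 is chr2:125152350-125152599 on the plus strand. Both are written in lower case, since the motif searched for was in neither.
Umod: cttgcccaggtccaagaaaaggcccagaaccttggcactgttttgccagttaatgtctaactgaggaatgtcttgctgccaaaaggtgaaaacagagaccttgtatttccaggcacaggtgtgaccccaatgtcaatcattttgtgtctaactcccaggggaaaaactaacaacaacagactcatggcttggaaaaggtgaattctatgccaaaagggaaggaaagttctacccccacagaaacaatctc
Slc12a1: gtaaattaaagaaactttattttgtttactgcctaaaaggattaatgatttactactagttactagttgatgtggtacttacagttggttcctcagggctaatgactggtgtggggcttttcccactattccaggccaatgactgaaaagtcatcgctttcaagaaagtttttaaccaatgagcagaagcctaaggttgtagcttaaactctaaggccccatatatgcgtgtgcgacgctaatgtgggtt
G and C made up 45.2% of the Umod window and 39.6% of the Slc12a1 window. The table of RefSeq promoters held entries for 7 of the 9 genes. The half-site of the ESRR receptors, AAGGTCA or its reverse complement TGACCTT, was in the window of none of these 7, and 4.08% of 32851 promoter windows of the same length hold it. This says only that these letters are not in these windows.

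Umod had the highest level of the 9 genes per listed gene length. In the normal kidneys it ranged from 3419 CPM (kidney 7) over a median of 4219 CPM to 7910 CPM (kidney 9), so that no kidney was far from the rest. In tumors the median was 0.736 CPM and the highest 5.46 CPM, in tumor 7 with 128 counts. Tumor 4 had 0 Umod counts, which allows up to 0.12 CPM, and tumor 9 had 1 count, so the least affected and the most affected tumors both lay far below any normal kidney. The log2 fold change was -11.87 (SE 0.80, adjusted p = 1.61e-10, edgeR). The antisense gene Gm44588 overlaps Umod, and since the use of strand in counting is not stated, reads of the 2 cannot be told apart.

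Slc12a1 varied far more among normal kidneys. Its lowest level was 105.8 CPM in kidney 5, the median 1284 CPM and the highest 1703 CPM in kidney 4. In tumors it had a median of 0.191 CPM and a maximum of 1.46 CPM in tumor 1, with 26 counts. Tumor 7, which had the most Umod counts of any tumor, had 0 counts of Slc12a1, which allows up to 0.141 CPM. The log2 fold change was -11.26 (SE 0.87, adjusted p = 1.17e-09). The antisense gene Gm14002 overlaps Slc12a1.

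Kcnj1 (ENSMUSG00000041248, chr9:32372493-32399197) encodes ROMK, without which NKCC2 runs out of luminal potassium. It ranged from 44.3 CPM in kidney 7 over a median of 237 CPM to 371.4 CPM in kidney 4. The 10 tumors held between 0 and 10 counts each, at a median of 0.0962 CPM, and tumors 4 and 10 had none. Kcnj1 thus changed by -10.22 on the log2 scale (SE 0.61, adjusted p = 3.59e-11).

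Bsnd (ENSMUSG00000025418, chr4:106483456-106492283) encodes barttin, a membrane protein of chloride transport. Its normal kidneys lay between 8.53 CPM in kidney 5 and 93.0 CPM in kidney 3, with a median of 58.8 CPM. All 10 tumors together held 9 Bsnd counts, 4 of them in tumor 7, and 4 tumors had none. Bsnd changed by -9.98 on the log2 scale (SE 0.66, adjusted p = 1.34e-10).

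Cldn16 and Cldn19 encode the claudins that together form the calcium and magnesium pathway between cells of the limb. Cldn16 (ENSMUSG00000038148, chr16:26463135-26482765) had the lowest kidney levels of the 9 in CPM, from 4.05 CPM in kidney 7 over a median of 10.6 CPM to 32.7 CPM in kidney 9. Only tumors 1, 2 and 3 had any Cldn16 counts, 8 in all. The other 7 tumors had 0 counts, and the highest tumor reached 0.228 CPM, so tumors and kidneys did not overlap although the kidney level was low. This was a log2 fold change of -7.98 (SE 0.64, adjusted p = 2.11e-09).

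Cldn19 (ENSMUSG00000066058, chr4:119255414-119262438) was among the steadier genes of the 9 over the normal kidneys, from 21.7 CPM in kidney 7 over a median of 35.8 CPM to 61.9 CPM in kidney 9. Every tumor had at least 1 count, with a median of 0.247 CPM and a maximum of 1.05 CPM in tumor 8. Its log2 fold change was -6.82 (SE 0.41, adjusted p = 4.5e-11). The antisense gene Gm12927 overlaps Cldn19.

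Cldn10 (ENSMUSG00000022132, chr14:118787908-118875489) encodes a claudin with more than 1 isoform. As background, 1 isoform makes a sodium pore in the thick ascending limb and another an anion pore in the proximal tubule. RefSeq lists start sites for this gene in 2 places, and since the gene count sums over both, it does not tell which isoform was present. The 250 bases before each are shown because the count joins them. They are chr14:118787621-118787870 for the upstream start and chr14:118854700-118854949 for the downstream start, both on the plus strand of GRCm38.p6.
Cldn10 upstream start: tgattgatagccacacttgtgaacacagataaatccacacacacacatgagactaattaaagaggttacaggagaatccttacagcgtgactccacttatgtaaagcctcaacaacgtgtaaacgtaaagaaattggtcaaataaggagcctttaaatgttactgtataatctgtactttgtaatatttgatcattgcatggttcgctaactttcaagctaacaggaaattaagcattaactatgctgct
Cldn10 downstream start: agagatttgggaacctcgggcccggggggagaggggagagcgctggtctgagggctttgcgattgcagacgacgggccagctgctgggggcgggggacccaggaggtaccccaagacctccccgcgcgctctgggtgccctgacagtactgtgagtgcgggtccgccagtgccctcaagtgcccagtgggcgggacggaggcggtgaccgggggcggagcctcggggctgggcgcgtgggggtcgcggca
G and C made up 36% of the upstream window and 72.4% of the downstream window. Cldn10 ranged from 32.2 CPM in normal kidney 5 over a median of 140.7 CPM to 457.5 CPM in kidney 9. Tumors ranged from 15.4 CPM in tumor 7 over a median of 92.5 CPM to 158.8 CPM in tumor 3, so 9 of the 10 tumors were above the lowest normal kidney and below the highest. Its log2 fold change was -0.71 (SE 0.41, p = 0.0942, adjusted p = 0.156, edgeR), which did not pass the threshold. Lrp2, the megalin gene of the proximal tubule, also had its lowest tumor level in tumor 7 (450.4 CPM, against a tumor median of 2773 CPM). The log2 fold change of Lrp2 was 0.56 (SE 0.41, adjusted p = 0.275), while Slc5a2 and Slc22a8, also of the proximal tubule, fell by 3.54 and 3.74, and of the 9 tested markers of that segment 4 were lower, with a median of -1.15. The part of the proximal tubule isoform in the Cldn10 count was not tested.

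The call for Cldn10 depended on which kidneys were used. Normal kidneys 5, 7 and 8 were the 3 lowest for Cldn10 itself, so leaving them out, a choice made after seeing the data, could only enlarge the drop. Its log2 fold change was then -1.07 (adjusted p = 0.022), which is given as a value and not as a call. Without normal kidney 9 and tumor 7 it was -0.24 (adjusted p = 0.52), and without normal kidney 9 alone it was -0.36. The 8 other genes were called lower under every alternative.

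Ppp1r1a (ENSMUSG00000022490, chr15:103530279-103538003) encodes inhibitor 1 of protein phosphatase 1. It ranged from 33.5 CPM in kidney 5 over a median of 148.4 CPM to 644.7 CPM in kidney 9, which stood above the other kidneys, all of them at or below 166.4 CPM. Tumors had a median of 0.170 CPM and a maximum of 1.02 CPM in tumor 7, and tumor 2 had 0 counts. Ppp1r1a had a log2 fold change of -9.0 (SE 0.72, adjusted p = 1.93e-09).

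Tmem72 (ENSMUSG00000048108, chr6:116679063-116716913) encodes a transmembrane protein. Its kidney levels lay between 63.1 CPM in kidney 7 and 220.1 CPM in kidney 4, with a median of 177 CPM. It was detected in every tumor, with 10 to 53 counts, a median of 1.90 CPM and a maximum of 2.64 CPM. Apart from tumor 7, the lowest at 0.427 CPM, its tumors held a fairly even low level, unlike those of Umod. The log2 fold change was -6.49 (SE 0.29, adjusted p = 6.96e-13).

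**Figure D2:**
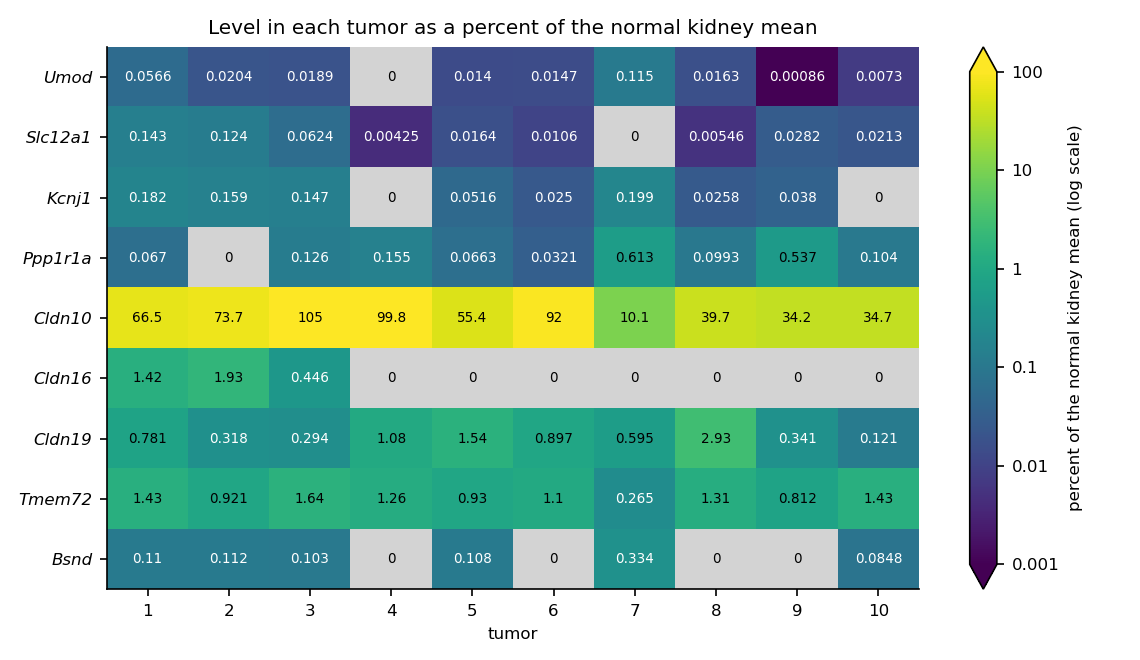
Each cell gives the level of a gene (rows) in a tumor (columns) as a percent of the mean of the 10 normal kidneys, on a log color scale, with gray for 0 counts. Cldn10 lies between 10.1% and 105%, Tmem72 between 0.265% and 1.64%, and Umod at or below 0.115% in every tumor.

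What was left in the tumors differed between the genes. Tumor 7 had the highest tumor level of Umod, Kcnj1, Ppp1r1a and Bsnd, at 0.115%, 0.199%, 0.613% and 0.334% of the kidney mean, while its Cldn10 and Tmem72 were the lowest. This tumor also had the highest summed level of the 4 stromal markers (2590 CPM, against a tumor median of 117 CPM), of the 6 immune markers (1170 against 396 CPM) and of the 6 principal cell markers (32.3 against 1.58 CPM), and the lowest of the 10 proximal tubule markers (948 against 4940 CPM). It was highest as well for the intercalated cell (11.7 against 4.15 CPM), podocyte (272 against 203 CPM) and endothelial markers (604 against 269 CPM). Of the 32.3 CPM of the principal cell markers in tumor 7, Aqp3 gave 23.56 CPM and Hsd11b2 6.02 CPM, with Aqp2 at 0.299 CPM. The part of any of these cell types in the levels of tumor 7 was not tested. Tumors 1 and 2, by contrast, had the most Slc12a1 (26 and 22 counts) and the most Cldn16 (3 and 4 counts).

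How far each gene fell was also set against Slc12a1 within each library. For each library the log2 CPM of Slc12a1 was subtracted from that of the other gene, and the groups were compared by a two-sided permutation test with 100000 resamples, adjusted over the 8 genes. On this scale 0 counts give -3.32, so a gene can fall no further than from its kidney mean to that value. Slc12a1 fell by 10.98, from 9.44 to -1.54, with 7 or fewer counts in tumors 4 to 10, so its own tumor values depend on the prior count as well. The largest drop open to the others was 6.65 for Cldn16, 8.4 for Cldn19, 8.56 for Bsnd, 10.16 for Ppp1r1a, 10.24 for Cldn10, 10.58 for Tmem72 and 10.77 for Kcnj1. Each of these is under 10.98, so a smaller mean drop than that of Slc12a1 was fixed for these 7 genes, and no call is read from their tests. As a description, the mean drop was 9.56 for Kcnj1, 8.57 for Ppp1r1a, 8.11 for Bsnd, 6.61 for Cldn19, 6.46 for Tmem72, 6.28 for Cldn16 and 0.63 for Cldn10. Tmem72 and Cldn10 stayed well short of the drop open to them.

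Umod alone had room to fall further than Slc12a1, with a largest possible drop of 15.48 and a mean drop of 12.57. Its change relative to Slc12a1 was -1.59 (SE 0.84), which did not pass the test (permutation test, n = 10 per group, adjusted p = 0.073). The result depended on the libraries and on the pairing. With same-numbered tumors and kidneys as pairs, the same difference passed (sign-flip permutation test, adjusted p = 0.0222). It was -2.11 (adjusted p = 0.00797) without tumor 7, which had 128 Umod counts and no Slc12a1 count. Tumor 7 had the highest Umod relative to Slc12a1 of the tumors, so leaving it out alone could only enlarge the drop. The change was -2.05 (adjusted p = 0.0126) without normal kidney 9 and tumor 7. Without normal kidneys 5, 7 and 8, in which Slc12a1 was low, the change was -0.62 (adjusted p = 0.475). Umod relative to Slc12a1 was highest in these kidneys, so leaving them out could only shrink the drop. Leaving out several libraries at once was a choice made after seeing the data. The changes without libraries are given as values and not as calls. With a prior count of 0.5 the change was -1.38 (adjusted p = 0.204).

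Per length of gene, the order of the genes in normal kidneys could be read in RPKM, which is CPM divided by the listed gene length in kilobases. That length was 17177 bases for Tmem72 and 1173 bases for Cldn16, so the order depends on the lengths listed. Umod stood first with a mean level of 1720 ± 548 RPKM (SD, n = 10), above Slc12a1 (176 ± 112 RPKM) in 10 of 10 kidneys. Ppp1r1a followed at 128 ± 135 RPKM, below Slc12a1 in 8 of 10 kidneys, and then Kcnj1 at 64.4 ± 34.2 RPKM and Cldn10 at 58.6 ± 45.6 RPKM, in that order in 7 of 10 kidneys. These neighbors did not differ beyond their spread. Bsnd had 18.5 ± 12 RPKM, Cldn16 10.1 ± 7.07 RPKM, Tmem72 9.36 ± 2.74 RPKM and Cldn19 8.41 ± 3.12 RPKM, and these 4 also overlapped. Cldn16 exceeded Tmem72 in 2 of 10 kidneys despite its higher mean.

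**Figure D3:**
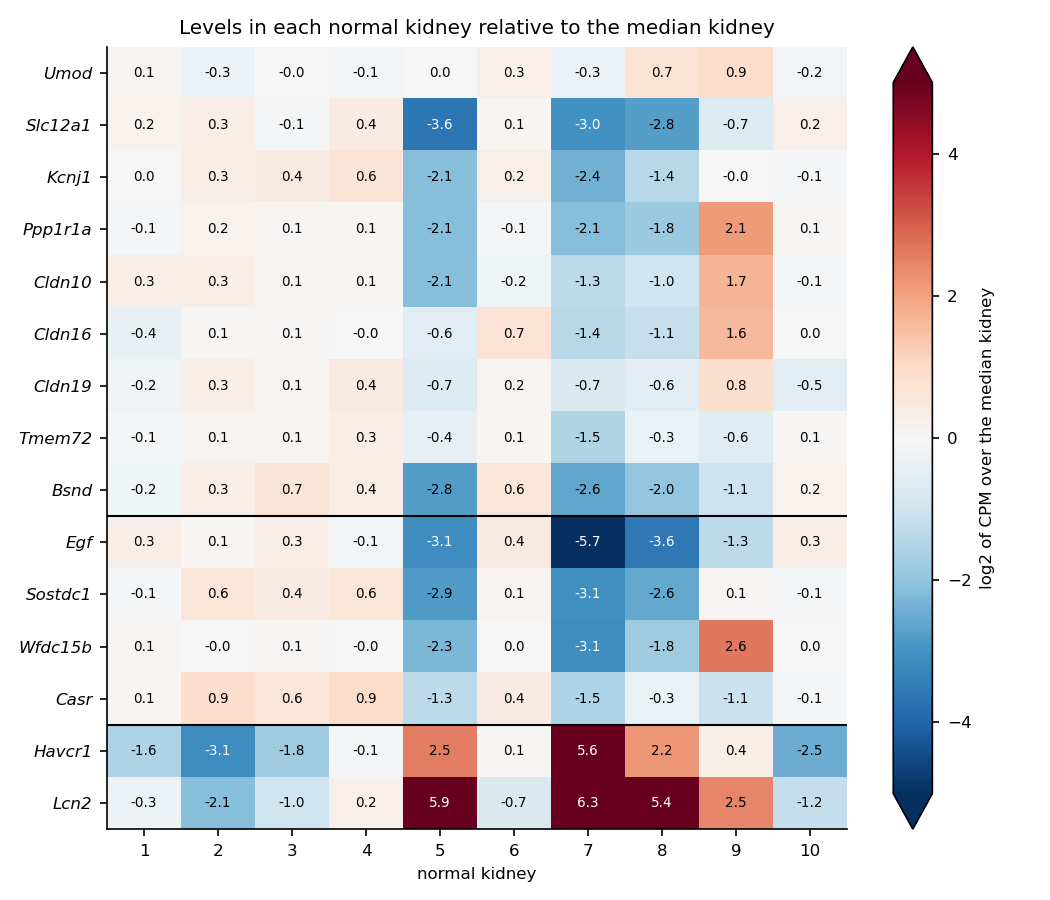
Colors and numbers give the log2 of the CPM of a gene (rows) in each normal kidney (columns) over the median kidney. Kidneys 5, 7 and 8 are low for Slc12a1, Kcnj1, Ppp1r1a and Bsnd and high for the injury genes Havcr1 and Lcn2, while Umod stays near the median, and kidney 9 is high for Ppp1r1a, Cldn10 and Cldn16.

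The normal kidneys themselves differed, and they did so unequally across the 9 genes. From the lowest to the highest kidney, Umod spanned 2.31-fold, Cldn19 2.85-fold and Tmem72 3.49-fold. Cldn16 spanned 8.08-fold, Kcnj1 8.38-fold, Bsnd 10.9-fold, Cldn10 14.2-fold, Slc12a1 16.1-fold and Ppp1r1a 19.2-fold. Without normal kidney 9 the span of Ppp1r1a was 4.96-fold, that of Cldn10 5.39-fold and that of Cldn16 4.36-fold, while those of Slc12a1, Kcnj1 and Bsnd did not change.

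Kidneys 5, 7 and 8 were the 3 lowest of Slc12a1, at 105.8, 158.1 and 190.2 CPM, against 805.2 CPM in kidney 9 and at least 1198 CPM in the other 6. The same 3 kidneys were the 3 lowest in 7 of the 9 genes, all but Umod and Tmem72, which was so in 12.7% of all genes tested. These 7 include Slc12a1, whose match was fixed because its own levels chose the 3 kidneys. For Bsnd they had 8.53, 9.79 and 15.1 CPM, and for Kcnj1 53.6, 44.3 and 89.6 CPM. Umod in the same kidneys had 4284, 3419 and 6925 CPM, which spans nearly the whole range of the group. Whether the kidneys of lower Slc12a1 were injured is not on the labels, and no test was made between kidneys sorted by their own levels.

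Counted as Umod reads per Slc12a1 read, kidneys 1, 2, 3, 4, 6 and 10 lay between 2.11 and 3.67. Kidney 5 had 40.5, kidney 7 had 21.6, kidney 8 had 36.4 and kidney 9 had 9.82. A ratio of 2 genes within a library does not depend on how libraries are scaled.

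**Figure D4:**
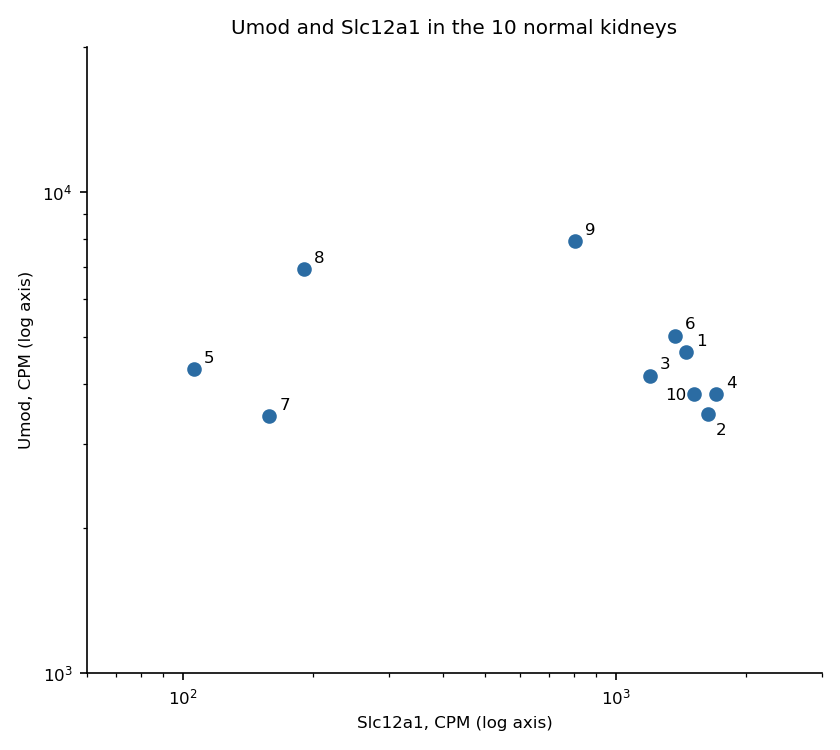
Each point is 1 of the 10 normal kidneys, with Slc12a1 on the horizontal and Umod on the vertical axis, both in CPM on log axes. Kidneys 5, 7 and 8 lie at 105.8 to 190.2 CPM of Slc12a1 while their Umod, 3419 to 6925 CPM, falls among the other kidneys.

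The 3 kidneys also had the highest levels of most tubule injury genes. They were the 3 highest in 6 of the 8 genes of that list (Havcr1, Lcn2, Krt20, Sox9, Spp1 and Clu), which was so in 11.3% of all genes. Havcr1, the gene of kidney injury molecule 1, had 163.5, 1347 and 128.5 CPM in kidneys 5, 7 and 8, against 3.18 to 35.7 CPM in the other 7. Lcn2, which encodes the injury marker NGAL, had 2538, 3302 and 1765 CPM there, against 9.77 to 232 CPM in the other 7. None of the 8 injury genes was at 0 in any kidney. The summed level of the list ranged from 2460 to 54600 CPM in normal kidneys and from 9130 to 37100 CPM in tumors. Spp1 made up most of these sums, with 44330 CPM in kidney 7 and 36140 CPM in tumor 6, the highest of each group. The part of injury in the low levels of kidneys 5, 7 and 8 was not tested.

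Since Lcn2 and Havcr1 set these 3 kidneys apart, a relation of the 9 genes with them was computed only within the other 7. None of 18 relations passed an adjusted p of 0.05 (exact permutation tests, two-sided). The smallest adjusted p was 0.249 for Pearson's r and 0.221 for Spearman's rho. At an unadjusted p under 0.05, Umod rose with Lcn2 (r = 0.87, exact permutation p = 0.026, rho = 0.75, p = 0.0663). That relation rested on 2 kidneys, since r was -0.04 without the pair farthest from the median of Lcn2. The rho of Umod with Havcr1 was 0.89 (exact permutation p = 0.0123, r = 0.70, p = 0.0542), and r was 0.35 without the 2 farthest kidneys. Without normal kidney 4, 2 relations passed.

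Normal kidney 9 differed in another way. It had the highest Umod, Ppp1r1a, Cldn10, Cldn16 and Cldn19 of the 10, but a Slc12a1 level of 805.2 CPM and a Bsnd level of 28.3 CPM, each the fourth lowest. Its Wfdc15b, a short transcript of 572 bases, was 955.2 CPM, and its Egf, of 11275 bases, was 477 CPM, against medians of 154.5 and 1170 CPM. The part of gene length in the values of kidney 9 was not tested.

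Among the other genes of the limb, 12 transport partners were measured, of which 9 were lower, 1 higher and 2 not past the test, with a median log2 fold change of -1.05. The potassium channel gene Kcnj10 fell by 6.82 on the log2 scale (SE 0.35). Atp1b1, which encodes a sodium pump subunit used along the whole nephron, fell by 0.92 (SE 0.21). Cldn3 rose by 2.20 (SE 0.30, adjusted p = 4.34e-06), from a mean of 22.8 to 104.6 CPM, with every tumor above every normal kidney, as in 5.87% of all genes. Among all genes tested, 23.6% were higher in tumors. Cldn14, a claudin that blocks the Cldn16 and Cldn19 pathway, differed by 1.51 on the log2 scale (SE 0.66, adjusted p = 0.0619).

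Of 15 regulators of transport and of uromodulin processing, 13 were tested, 8 were lower and 1 was higher, with a median of -1.02. Casr, the calcium-sensing receptor of the basolateral membrane, fell from 71.2 ± 38.4 to 0.116 ± 0.168 CPM (SD, n = 10 each, log2 fold change -9.21, adjusted p = 1.11e-10). The kinase gene Stk39, whose product SPAK activates NKCC2, fell by 3.28 (SE 0.38), while its close relative Oxsr1 rose by 0.46 (SE 0.10, adjusted p = 0.000857). The kinase genes above them fell by 1.44 (Wnk4) and 0.77 (Wnk1), and the receptor genes Ptger3 and Pth1r fell by 1.87 and 1.32. Hpn, whose protease product releases uromodulin from the membrane, changed by -0.005 (SE 0.22, adjusted p = 0.988), with a mean of 311.3 CPM in normal kidneys. Avpr2 and Nos1 did not pass the filter for low counts.

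Of 8 transcription factors of the limb and the distal nephron, 7 were lower, with a median of -2.59. Irx1 fell by 9.40 (SE 0.58), Tfap2b by 8.70 (SE 0.57), Irx2 by 6.56 (SE 0.66) and Pou3f3 by 4.31 (SE 0.76). Esrrg, which encodes an estrogen-related receptor, fell by 0.87 (SE 0.25). For Ppargc1a the difference was -0.51 (SE 0.33, adjusted p = 0.207).

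Of 6 further transcripts enriched in the limb, 5 were tested and all 5 were lower, with a median of -8.91. Egf, the gene of epidermal growth factor, fell by 9.32 (SE 0.76), Wfdc15b by 9.06 (SE 0.84) and Sostdc1 by 8.91 (SE 0.72), with Enox1 and Ckb at -2.10 and -0.93. In 4 of the 5, Egf, Ckb, Sostdc1 and Wfdc15b, the lowest kidneys were also 5, 7 and 8. That held for 2 of 12 transport partners, 3 of 13 regulators and 2 of 8 factors. It was not particular to these lists. Among markers of other segments it held for 3 of 6 thin limb, 3 of 6 principal cell and 1 of 3 distal convoluted tubule genes. It also held for 1 of 6 intercalated cell and 1 of 9 proximal tubule genes. Egf in these kidneys was 135.8, 22.3 and 99.4 CPM. Tmem207, which did not pass the filter, had 0 counts in every tumor and was at least 64.6-fold lower there than its kidney mean of 9.67 CPM, against a floor of 3 counts per library. Its kidneys 5, 7 and 8 were at 0.297, 0.621 and 0.635 CPM.

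**Figure D5:**
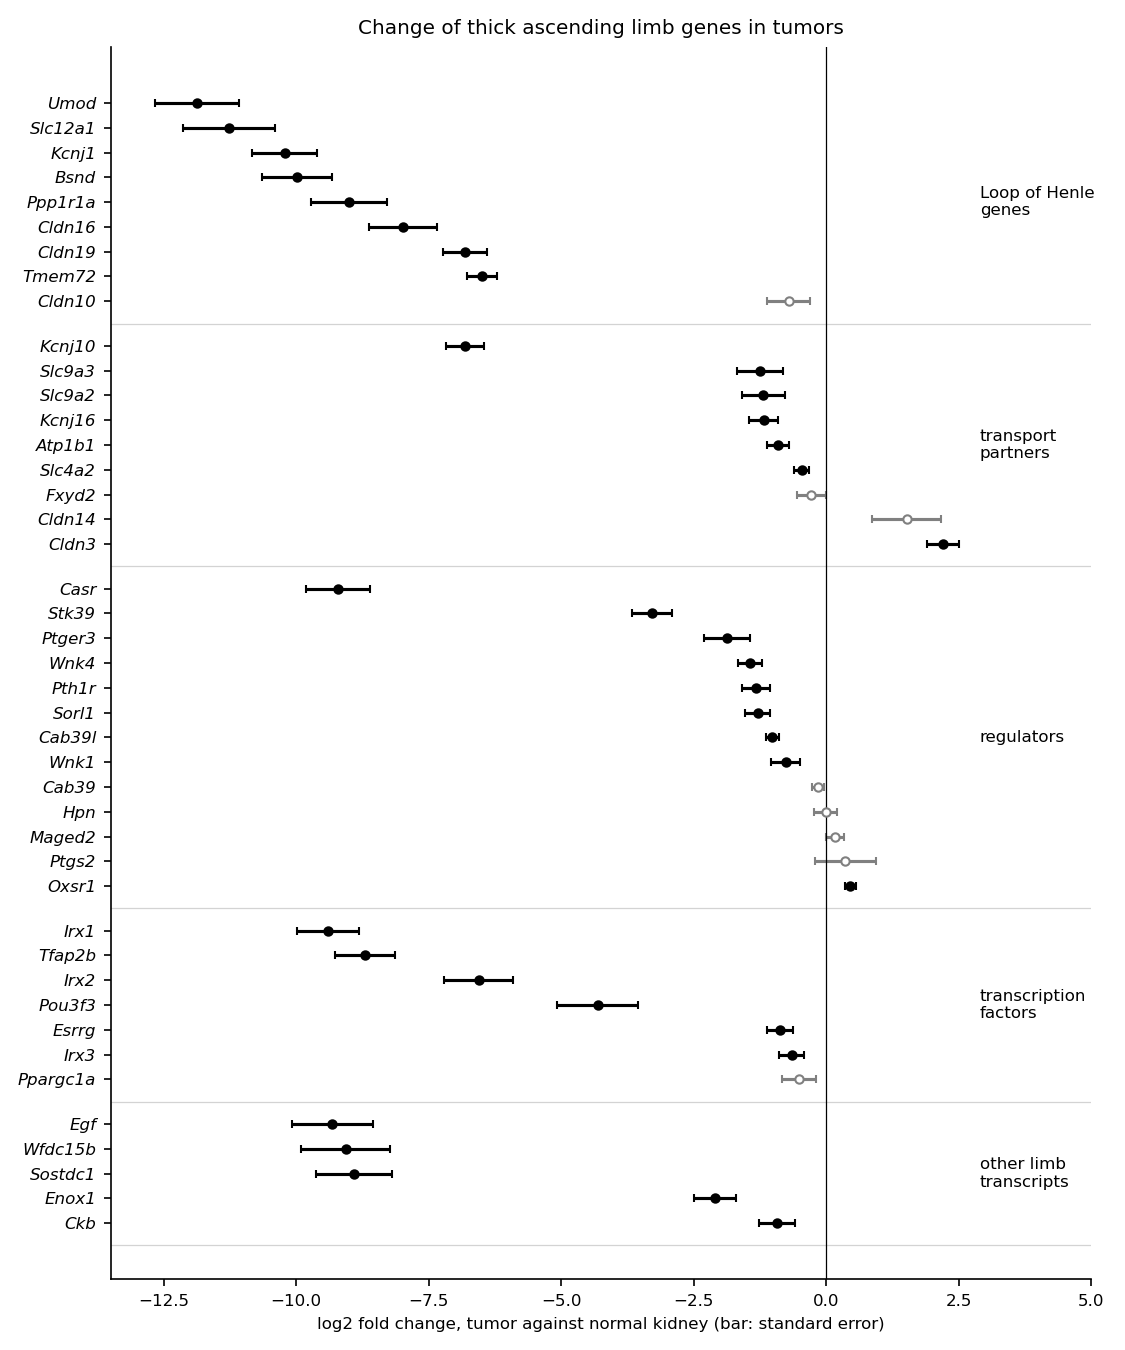
Points give the log2 fold change of tumors against normal kidneys with its standard error for the 9 genes and for genes reported from the 4 lists of other limb genes, filled where the adjusted p was under 0.05 and open otherwise. The 9 genes run from -11.87 for Umod to -0.71 for Cldn10, and the transport partners plotted from -6.82 for Kcnj10 to 2.20 for Cldn3.

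Markers of neighboring segments gave the setting. All 6 principal cell markers and all 6 intercalated cell markers were lower, with medians of -7.00 and -7.37, as were the 3 tested of 4 distal convoluted tubule markers (median -9.20). Of 6 thin limb genes, 4 were lower and 1, Bst1, rose by 4.09 (SE 0.19). Of the proximal tubule markers 4 of the 9 tested were lower (median -1.15), and of the 4 genes of most tubule segments Epcam and Cdh1 were lower and Pax8 and Cdh16 did not pass the test. Of 3 tested osmolyte genes of the medulla 1 was lower, and of 5 podocyte markers 4. Of the 8 injury genes 2 were lower and 1 higher, of 5 tested immune markers 4 were higher, of 5 endothelial markers 1 was lower and 1 higher, and the 4 stromal markers did not pass (adjusted p of 0.0733 for Col1a1 and 0.201 or more for the others, edgeR). The normal mean of the injury genes includes kidneys 5, 7 and 8, the 3 highest for 6 of the 8. Beside the other 7 kidneys, every tumor was higher for Havcr1, with 102.4 CPM or more against 35.7 CPM or less. So it was for Krt20 (28.09 against 4.53 CPM), Sox9 (10.43 against 7.67 CPM) and Spp1 (8319 against 4050 CPM). Clu went the other way, with 239.6 CPM or less in tumors against 306 CPM or more. The kidneys were sorted by such genes, so no call is read. No test compared these lists with the 9 genes.

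Over the 10 normal kidneys, the mean of the 9 genes' log2 CPM was followed most closely by Uros (Pearson's r = 0.992), Zgpat (0.991), Dusp19 (0.986), Pde1a (0.985), Mccc2 (0.982), Cpsf4l (0.982), Fam107a (0.981), A4gnt (0.98), Mkks (0.98) and Zfp672 (0.98). These are the highest of all genes tested with a mean of at least 1 CPM in kidneys, and the points share their libraries and the split of kidneys 5, 7 and 8. In tumors, Fam107a fell by 6.13 (SE 0.69), A4gnt by 4.63 (SE 0.80) and Pde1a by 4.62 (SE 0.51), while Zgpat differed by 0.05 (SE 0.18, adjusted p = 0.842). Only Uros, Zgpat and Pde1a were also among the 10 closest without normal kidney 9. The 9 genes' own r with their mean was 0.152 for Umod and 0.673 for Tmem72, and between 0.817 and 0.967 for the other 7. Each of the 9 is itself part of that mean, which raises its r, so these values are not comparable with those of the genes outside it.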

How the data were processed

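RNA of 10 tumors and 10 normal kidney regions was extracted with Trizol from flash frozen, pulverized tissue. A sequencing company enriched poly(A) RNA, sequenced read pairs and counted reads per gene, and the values the authors deposited are raw counts. The submitters' processing notes name the mm10 build. The aligner, the counting tool and the use of strand are not given in the sources used here. The table had 0 rows that name no gene and 0 unused columns of per-sample values, and its gene positions were the same as those of GENCODE M21 for all 9 genes.

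Groups and replicate numbers follow the sample labels. TMM normalization and the quasi-likelihood test of edgeR 4.0.16 (R 4.3.3) were applied to all 20 libraries without covariates, after its filter with a count minimum of 10, and p-values were adjusted over 15354 genes. CPM were computed from the normalized library size and log2 CPM with a prior count of 2. RPKM used the gene lengths of the table. A count of 0 allows up to 3 counts, and this floor covers counting error only. It was set over the unscaled total for Umod and Slc12a1 and over the normalized library size for Tmem207. Fits were tested on simulated data. Alternatives were DESeq2 1.42.0, limma 3.58.1 (voom with quality weights), other factors, no filter, a replicate block and leaving out libraries. The relation with injury genes was planned over 10 kidneys, and was computed over 7 because the kidneys fell into separate clusters.

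The genes named are the 9 genes, the genes of 17 hand-written lists (117 symbols), and the 10 genes most like the 9 over normal kidneys. Some listed genes are counted in their lists but not reported here by name. The members and lists were chosen with earlier results of these data known. P-values of the main tests measure the spread between libraries. These were taken as independent, although both groups came from the same 10 mice. Permutation tests used 100000 resamples with seed 314, or all arrangements where called exact.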

Additional observations from a re-analysis of the deposited data

Results flagged for a closer look

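In groups of 10 libraries, 4 values had a gap to their nearest neighbor that was large for the range of their group by Dixon's criterion, which chance exceeds in about 1 of 20 groups. Cldn10 in tumor 7 was 3.95 on the log2 CPM scale, against 5.70 in the next tumor. Tmem72 in tumor 7 was -0.92, against 0.49 in the next. Bsnd in tumor 7 was -1.89, the highest of the tumors, against -2.67 in the next, a value from 4 counts. Tmem72 in normal kidney 7 was 5.98, against 6.86 in the next kidney. Of these 4 values, 3 belong to tumor 7.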

How the results depend on the processing

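The 8 genes called lower kept their direction and stayed past the threshold under every alternative run. The count of genes lower of the 9 was 8 throughout except without normal kidneys 5, 7 and 8, the 3 lowest kidneys of Cldn10, where it was 9. The whole-genome counts stayed within 1.5 times their value, from 2850 to 5337 genes higher and 3474 to 5407 lower. Of the genes called, 49.8% were higher with TMM factors, 39.2% with upper quartile factors and 38.5% with library totals, the latter pair with all-gene medians of -0.137 and -0.141 (log2 fold change). Leaving out each normal kidney in turn gave 0 to 2 relations with injury genes past the threshold.

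Same-numbered tumors and kidneys were not taken as pairs, since no label says that a number marks a mouse. Their deviations correlated with r from -0.14 (number 9) to 0.38, 9 of 10 above 0.1, and 8 of 10 tumors correlated best with their own number. The main tests thus took the 20 libraries as independent, although both groups came from the same 10 mice. With a replicate block 3979 genes were higher and 3886 lower, 8 of the 9 genes remained lower, and the change of Umod relative to Slc12a1 passed (-1.59, sign-flip permutation test, adjusted p = 0.0222). Low counts in tumors limit how large a drop a gene can show.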
